A study of Homo sapiens with 18 samples.

Results

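The genes described here encode Hic-5 itself (TGFB1I1), the chromatin remodelers CHD9, BRM (SMARCA2) and BRG1 (SMARCA4), and the GR coregulators NCOA1, NCOA2, NCOA3, EP300 and NCOR1. GR binding regions (GBR) were assigned to these 9 genes when the peak summit lay within 100 kb of the transcription start site (TSS) of the gene's canonical GENCODE transcript. Over the 6 peak lists of the study, 7 distinct GBR met this rule, called as 15 of the 20642 peaks in all. All 7 lay near CHD9, NCOA3 or NCOR1, and the other 6 genes had none in any list.

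The U2OS-GRα cells derive from U2OS, an osteosarcoma cell line, and carry a stably transfected GRα. Cells received 1 of 6 siRNA combinations for 48 h, namely the non-specific control alone (siNS/siNS), siRNA against Hic-5 (siHic5/siNS), CHD9 (siCHD9/siNS) or BRM (siBRM/siNS), or siHic5 together with siCHD9 or siBRM (siCHD9/siHic5, siBRM/siHic5). All 6 groups then received dexamethasone (dex) at 100 nM for 1 h, so no list without hormone was analysed here. Each group had 2 GR ChIP-seq libraries and 1 input library, and each deposited list was made from the pooled replicates. A GBR therefore has 1 call and 1 set of scores per combination, with no spread between replicates and no test between conditions, and the lists do not give the read depth. The lists hold no RNA or protein measurement, so the depletion of TGFB1I1, CHD9 and SMARCA2 could not be checked from them.

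GR is a hormone-activated transcription factor that binds glucocorticoid response elements (GRE) and needs coregulators to open chromatin and to reach the transcription machinery. Hic-5 is a LIM-domain adapter of the paxillin family found at focal adhesions and in the nucleus. CHD9 is an ATP-dependent remodeler of the chromodomain helicase family, and BRM and BRG1 are the alternative ATPases of the SWI/SNF complex. NCOA1, NCOA2 and NCOA3 are the p160 coactivators that bind nuclear receptors through their ligand-binding domain. EP300 is a histone acetyltransferase that the p160 coactivators recruit. NCOR1 is a corepressor scaffold for histone deacetylase complexes.

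The sequences under 6 of the 7 GBR are shown because the calls described here are of these regions. Each is the 201 bases of GRCh38 centered on the siHic5/siNS summit, on the plus strand, and is named by its gene and the distance from the TSS, with a minus sign for upstream. Capitals mark matches to a GRE, AP-1 or ETS consensus.
CHD9 −1.6 kb (chr16:53053323-53053523): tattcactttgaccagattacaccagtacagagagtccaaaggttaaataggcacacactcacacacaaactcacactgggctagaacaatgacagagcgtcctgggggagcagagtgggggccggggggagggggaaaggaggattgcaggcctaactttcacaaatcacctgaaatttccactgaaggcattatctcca
CHD9 +36 kb (chr16:53091049-53091249): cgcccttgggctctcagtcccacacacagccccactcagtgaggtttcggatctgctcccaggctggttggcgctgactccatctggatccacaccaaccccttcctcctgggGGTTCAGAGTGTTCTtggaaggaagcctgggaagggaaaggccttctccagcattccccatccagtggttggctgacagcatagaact
NCOA3 −90 kb (chr20:47411296-47411496): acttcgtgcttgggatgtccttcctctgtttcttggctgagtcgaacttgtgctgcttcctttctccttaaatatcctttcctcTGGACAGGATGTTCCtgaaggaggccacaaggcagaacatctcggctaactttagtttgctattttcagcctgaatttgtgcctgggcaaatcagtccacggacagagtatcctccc
NCOA3 −37 kb (chr20:47464467-47464667): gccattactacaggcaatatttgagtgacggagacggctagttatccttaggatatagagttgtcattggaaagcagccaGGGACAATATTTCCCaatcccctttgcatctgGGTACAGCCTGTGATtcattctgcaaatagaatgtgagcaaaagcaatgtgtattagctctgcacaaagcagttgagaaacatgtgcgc
NCOA3 +39 kb (chr20:47541050-47541250): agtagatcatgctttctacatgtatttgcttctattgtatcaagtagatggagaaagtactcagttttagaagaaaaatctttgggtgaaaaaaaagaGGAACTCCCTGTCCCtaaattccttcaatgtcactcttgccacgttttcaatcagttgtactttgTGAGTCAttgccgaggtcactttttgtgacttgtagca
NCOR1 −71 kb (chr17:16286414-16286614): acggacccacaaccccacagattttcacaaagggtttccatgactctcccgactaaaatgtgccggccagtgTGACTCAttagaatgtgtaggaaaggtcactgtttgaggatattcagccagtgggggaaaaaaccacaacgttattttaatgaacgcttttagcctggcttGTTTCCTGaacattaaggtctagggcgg

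The GRE consensus has 15 positions, 10 of them defined, and 1 mismatch was allowed. The AP-1 consensus was TGACTCA on either strand. The ETS consensus comprised CCGGAAAC, CCGGAAAT, CCGGAAGC, CCGGAAGT, CAGGAAAC, CAGGAAAT, CAGGAAGC and CAGGAAGT on either strand. No match overlapped another in the 7 GBR. A GRE match occurred in the 1-kb window around the summit of 4 of the 7 GBR, CHD9 +36 kb and the 3 of NCOA3. Over the whole siHic5/siNS list the share was 53.6%, and it was 12.6% in 1-kb windows placed 5 kb away from each summit on both sides. All 5 GRE matches of the 4 GBR lay within 20 bp of the summit, and each had 1 mismatch. The intronic CHD9 +36 kb GBR carries GGTTCAGAGTGTTCT from 53091162 to 53091176 on chromosome 16, 20 bp from the summit. At NCOA3 −90 kb the match is TGGACAGGATGTTCC, 9 bp from the summit, and at NCOA3 +39 kb it is GGAACTCCCTGTCCC, 5 bp from the summit. NCOA3 −37 kb holds a pair of matches, GGGACAATATTTCCC and GGTACAGCCTGTGAT, on either side of the summit at 13 and 19 bp.

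An AP-1 match occurred in 3 of the 7 GBR, against 37.1% of the whole list and 16.4% of the windows to either side. The matches lay 38 bp from the summit at CHD9 +77 kb, 25 bp at NCOR1 −71 kb and 66 bp at NCOA3 +39 kb. CHD9 +77 kb and NCOR1 −71 kb, which had AP-1 matches, had no GRE match, and NCOA3 +39 kb had both motifs. An ETS match occurred in 3 GBR, against 37.9% of the list and 27.4% of the windows to either side. At NCOR1 −71 kb the ETS match GTTTCCTG lay 76.5 bp from the summit, whereas at CHD9 +36 kb and NCOA3 −37 kb the ETS matches were 192.5 to 486.5 bp away. CHD9 −1.6 kb had no match to any of the 3 motifs in its 1-kb window, whereas 83.8% of the list had at least 1.

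**Figure D1:**
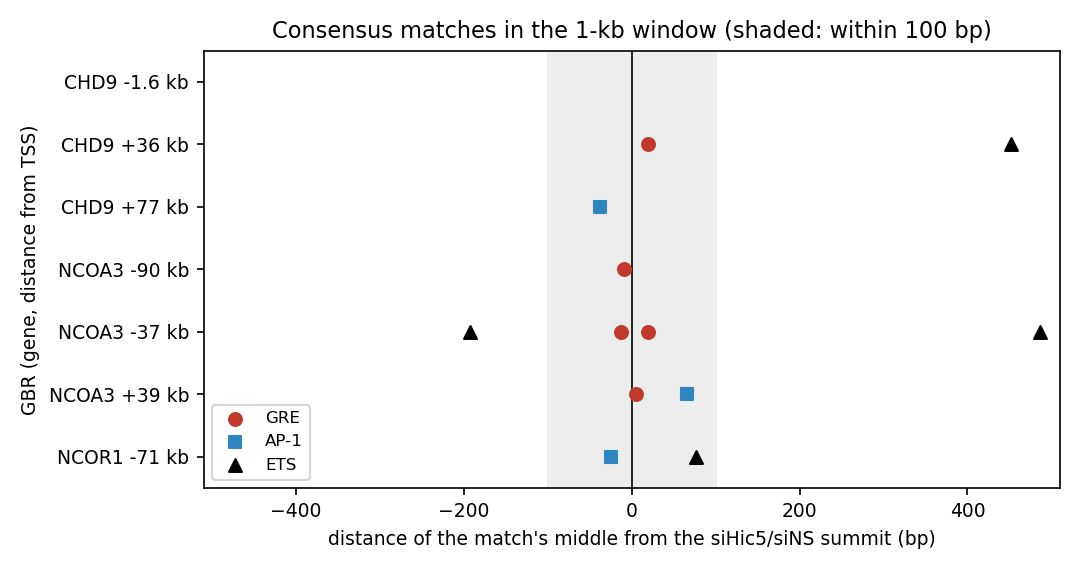
Position of each GRE (circles), AP-1 (squares) and ETS (triangles) consensus match relative to the siHic5/siNS summit in bp, one line per GBR over the 1-kb window, with the central 200 bp shaded. All 5 GRE and 3 AP-1 matches fall in the shaded part, 4 GBR have a GRE match, and CHD9 −1.6 kb has no match.

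CHD9, the siRNA target with GBR near its own TSS, had 3 of them in siHic5/siNS. The gene (ENSG00000177200.18) lies on the plus strand of chromosome 16 from 53054991 to 53329150. The GBR nearest to its TSS, from 53053213 to 53053580, was intergenic, 1.57 kb upstream of the CHD9 TSS and 0.526 kb from that of CHD9NB, the nearest protein-coding TSS. It was called in siHic5/siNS and in no other list. Strength is given as the −log10 p-value that MACS2 assigned, which grows with read depth. It orders GBR within a list, and values or ranks of one GBR in several lists are set side by side without comparison, since the lists differ in length, cutoff and depth. This GBR had a −log10 p-value of 17.1 and ranked 6492 of 9533, above 31.9% of the list.

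The strongest of the 7 GBR lay in an intron of CHD9, from 53090560 to 53091539, 36.2 kb downstream of the TSS. It was called in each of the 3 lists from cells depleted of Hic-5 and in none of the 3 lists from cells not depleted of it. Its −log10 p-value was 84.4 in siHic5/siNS (rank 669 of 9533), 49.6 in siBRM/siHic5 (rank 983 of 3383) and 33.7 in siCHD9/siHic5 (rank 641 of 2451). The summits of the 3 peaks lay within 57 bp of each other. Among the 7059 siHic5/siNS GBR without an overlapping siNS/siNS peak, it ranked 20, and of the 958 strongest siHic5/siNS GBR 50 were missing from siNS/siNS. The same pattern of calls was shared by 286 of the 9533 siHic5/siNS GBR.

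The third CHD9 GBR was intronic as well, 76.8 kb from the TSS. It was called in 5 lists and missing from siCHD9/siNS. Its −log10 p-value was 16.9 in siNS/siNS (rank 1759 of 2582), 54.4 in siHic5/siNS (rank 1433 of 9533), 16.1 in siCHD9/siHic5 (rank 1630 of 2451), 13.9 in siBRM/siNS (rank 953 of 1278) and 26.3 in siBRM/siHic5 (rank 2193 of 3383). The 5 summits lay within 36 bp. This pattern was found at 152 siHic5/siNS GBR (1.59%). Thus the list from cells depleted of CHD9 alone had no GBR within 100 kb of the CHD9 TSS. The nearest one in that list was 3552 kb away. It was a short list of 1415 GBR, and 10.5% of protein-coding genes had one of them within 100 kb. Of the whole siHic5/siNS list, 85.5% was missing from it, so such an absence was common. The list from cells depleted of Hic-5 and CHD9 together held 2 of the 3.

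**Figure D2:**
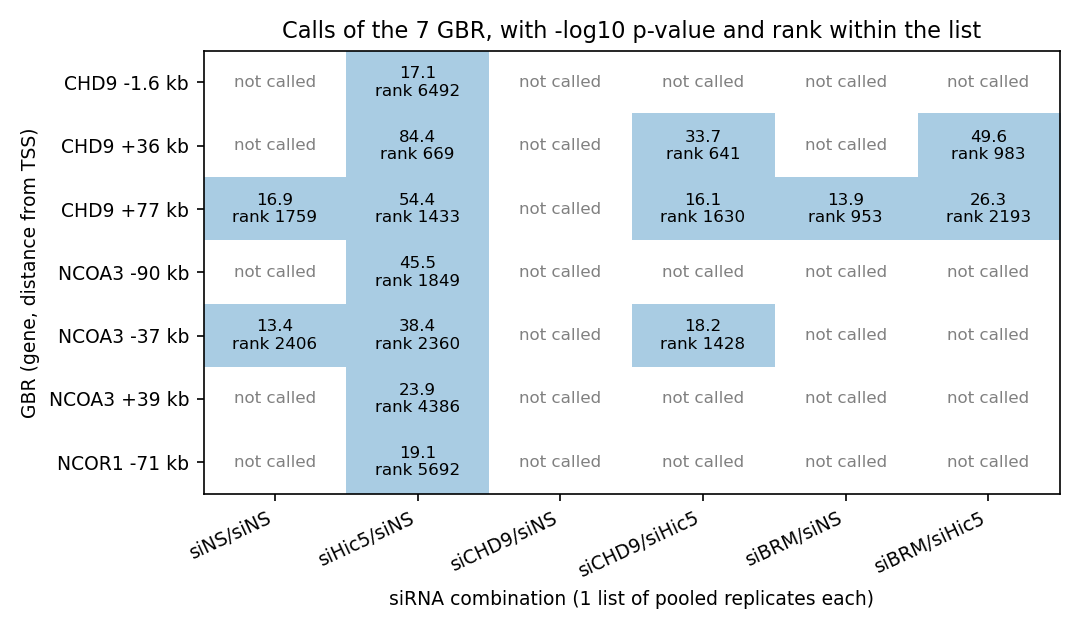
Calls of the 7 GBR (rows) in the 6 lists (columns), with called peaks shaded and marked with their −log10 p-value and their rank within the list, neither of which is comparable between lists. Every GBR was called in siHic5/siNS and none in siCHD9/siNS, and 4 rows are shaded in siHic5/siNS alone.

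NCOA3, of the 3 p160 coactivator genes the only one with a GBR in its window, had 3 in siHic5/siNS. The gene (ENSG00000124151.19) lies on the plus strand of chromosome 20 from 47501887 to 47656877. The GBR nearest to its TSS was intergenic, from 47464256 to 47465060 and 37.3 kb upstream. It was called in siNS/siNS (−log10 p-value 13.4, rank 2406 of 2582), siHic5/siNS (38.4, rank 2360 of 9533) and siCHD9/siHic5 (18.2, rank 1428 of 2451). The 3 summits lay within 10 bp. It was missing from siBRM/siHic5, siCHD9/siNS and siBRM/siNS, a pattern shared by 52 siHic5/siNS GBR (0.545%). The siBRM/siHic5 list held no peak below a −log10 q-value of 14.219, a stricter cutoff than the lowest value of the other lists (7.26 to 8.91). Whether this cutoff bears on the absence of this GBR from siBRM/siHic5 was not tested.

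The other NCOA3 GBR were called in siHic5/siNS and in no other list. The stronger, from 47411119 to 47411633, lay 90.5 kb upstream in an intron of the lncRNA gene LINC01754. The TSS of ZMYND8 was closer to it (54.7 kb) than that of NCOA3. Its −log10 p-value of 45.5 ranked 334 among the 7059 siHic5/siNS GBR missing from siNS/siNS. The weaker lay in an NCOA3 intron, from 47540967 to 47541333 and 39.3 kb from the TSS, with a −log10 p-value of 23.9 (rank 4386). NCOR1, the corepressor, had 1 GBR, also called in siHic5/siNS alone, from 16285873 to 16286771 on chromosome 17. It lay 71.0 kb upstream of the NCOR1 TSS in an intron of PIGL, with the TSS of CENPV closer (67.0 kb), and had a −log10 p-value of 19.1 (rank 5692). Distance alone does not tell which of these genes a GBR acts on.

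**Figure D3:**
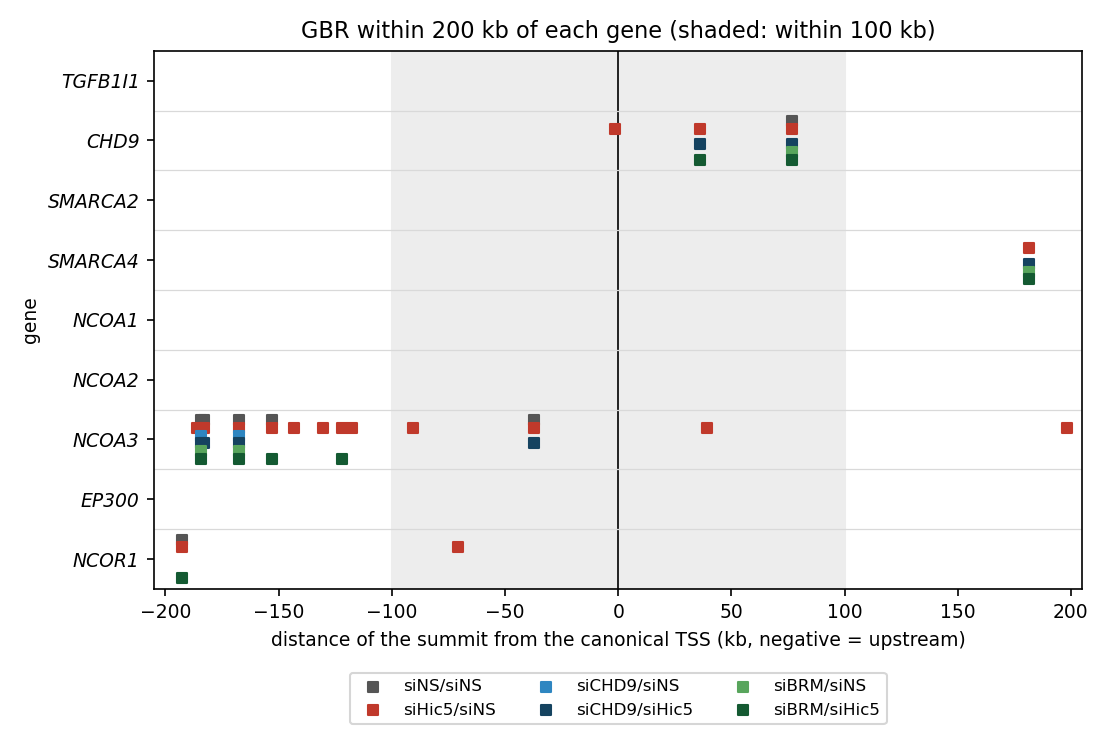
Distance in kb of every GBR summit from the canonical TSS of each of the 9 genes, out to 200 kb, with 1 row of squares per siRNA combination and the 100-kb window shaded. Only CHD9, NCOA3 and NCOR1 have squares in the shaded part, and just outside it NCOA3 has a group of GBR upstream, between −186 and −117.5 kb.

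The 6 genes without a GBR differed in how far the nearest one was. TGFB1I1 (ENSG00000140682.19, chromosome 16, TSS at 31472152), which encodes Hic-5, had its nearest GBR 354 kb upstream in an intron of KAT8. This GBR was called in all 6 lists, with a −log10 p-value of 68.0 in siHic5/siNS (rank 1000) and 35.2 in siNS/siNS (rank 644). For SMARCA2 (ENSG00000080503.25, chromosome 9, TSS at 2015347), which encodes BRM, the nearest GBR was 472 kb away in siHic5/siNS, 795 kb in siNS/siNS and 1864 to 2223 kb in the 4 lists with siCHD9 or siBRM. SMARCA4 had one 182 kb downstream of its TSS, in an intron of SPC24. It was called in siHic5/siNS, siCHD9/siHic5, siBRM/siNS and siBRM/siHic5, and not in siNS/siNS or siCHD9/siNS, whose nearest GBR was 1789 kb away. In siHic5/siNS the nearest GBR was 388 kb from the TSS of NCOA1, 760 kb from that of NCOA2 and 318 kb from that of EP300.

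Just outside the window of NCOA3 lay some of the strongest GBR of the data set. A pair in introns of ZMYND8, at −168 and −184 kb from the NCOA3 TSS, was called in all 6 lists and ranked between 8 and 58 in each. In siHic5/siNS their −log10 p-values were 235 and 247, well above the 45.5 of the strongest GBR inside the window. They are given only to show the edge of the window and are not counted among the 7.

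Counted by gene, 3 of the 9 genes had a GBR within 100 kb in siHic5/siNS, where the share of all 20033 protein-coding genes was 43.6%. The numbers were 2 in siNS/siNS (17.0% of protein-coding genes), 2 in siCHD9/siHic5 (16.4%), 1 in siBRM/siHic5 (22.2%), 1 in siBRM/siNS (9.92%) and 0 in siCHD9/siNS (10.5%). With 9 genes, 1 gene moves the share by 11.1 percentage points. By median, the distance from TSS to the nearest siHic5/siNS GBR was 318 kb for the 9 genes and 126 kb for all protein-coding genes. The 9 genes also had the larger median in siCHD9/siNS (889 against 747 kb) and siBRM/siHic5 (318 against 306 kb), and the smaller in siNS/siNS (354 against 430 kb), siCHD9/siHic5 (354 against 440 kb) and siBRM/siNS (360 against 795 kb).

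Counted by GBR, siHic5/siNS held 7 of them (0.0734% of its list), siNS/siNS 2 (0.0775%), siCHD9/siHic5 3 (0.122%), siBRM/siHic5 2 (0.0591%), siBRM/siNS 1 (0.0782%) and siCHD9/siNS 0. Of the 7 siHic5/siNS GBR, 5 had no overlapping siNS/siNS peak (71.4%, exact 95% binomial interval 29.0 to 96.3%), against 74.0% of the whole siHic5/siNS list. Likewise 4 had none in siCHD9/siHic5 (57.1%, 18.4 to 90.1%), against 75.4%, and 5 had none in siBRM/siHic5 (71.4%, 29.0 to 96.3%), against 65.4%. In the lists without siHic5, 7 of 7 were missing from siCHD9/siNS, against 85.5% of the list, and 6 of 7 from siBRM/siNS, against 86.9%. In all, 4 of 7 were called in no list but siHic5/siNS, against 58.7%. The intervals cover counting error only and treat the 7 GBR as independent, although 3 lay near CHD9 and 3 near NCOA3. Each interval holds the share of the whole list, of which the 7 are a part, and no departure from the list is read from them. With 1 −log10 q-value cutoff for all lists, the highest of their lowest values, the 2 siNS/siNS calls were lost and 6 of 6 remaining GBR were missing from siNS/siNS, against 76.1% of the 6387 siHic5/siNS GBR past that cutoff. Under it 5 of 6 were missing from siCHD9/siHic5 (83.3%, against 78.2%) and 4 of 6 from siBRM/siHic5 (66.7%, against 50.5%). The share missing from siCHD9/siHic5 thus stood below that of the whole list as deposited and above it under 1 cutoff.

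**Figure D4:**
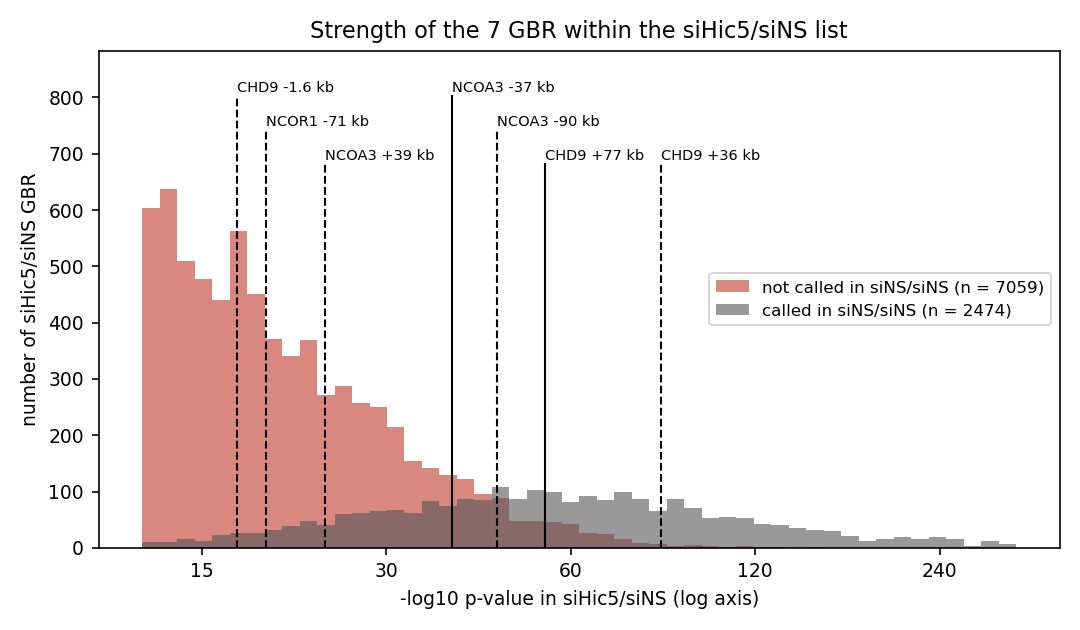
Number of siHic5/siNS GBR by −log10 p-value (log axis), split by whether a siNS/siNS peak overlapped (gray, 2474) or not (red, 7059), with lines at the 7 GBR, solid for those called in siNS/siNS. CHD9 +36 kb, at 84.4, lies in the upper end of the red distribution, and CHD9 −1.6 kb, at 17.1, near its middle.

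The 7 GBR had a median −log10 p-value of 38.4 and a median width of 795 bp in siHic5/siNS, against 22.4 and 506 bp over the whole list. The 5 without a siNS/siNS peak had a median of 23.9, against 18.7 for all such GBR, and ran from 17.1 to 84.4. The 2 with one had a median of 46.4, against 54.7 for all such GBR. Of these, CHD9 +77 kb at 54.4 and NCOA3 −37 kb at 38.4, stood below CHD9 +36 kb at 84.4, and NCOA3 −37 kb also stood below NCOA3 −90 kb at 45.5. Strength in siHic5/siNS thus did not order these GBR by their call in siNS/siNS. GC content of the 1-kb windows ran from 43.1% to 65.1%, with a median of 51.6% against 46.7% over the list. The median of the 7 lay between the quartiles of the list, 41.5% and 52.8%.

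To place these genes among others of their kind, 73 further genes in 6 lists were examined, all of which had a canonical TSS. A siHic5/siNS GBR lay within 100 kb of 32 of them (43.8%), close to the 43.6% of protein-coding genes. A siNS/siNS GBR lay within 100 kb of 10 (13.7%, against 17.0% of protein-coding genes). The other lists gave 14 for siBRM/siHic5 (against 22.2% of protein-coding genes) and 10 for siCHD9/siHic5 (against 16.4%). They gave 8 for siCHD9/siNS (against 10.5%) and 7 for siBRM/siNS (against 9.92%). Over these lists the share of the 73 genes ran from 9.59% in siBRM/siNS to 19.2% in siBRM/siHic5. Each share was close to that of protein-coding genes in the same list, so no drop particular to the 73 genes is read from the counts.

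Among the 18 SWI/SNF subunits, 5 had a siHic5/siNS GBR (27.8%, against 43.6% of protein-coding genes) and 5 had a siNS/siNS GBR (27.8%, against 17.0%). For ARID1A, a DNA-binding subunit of the complex, the strongest GBR lay at −74.96 kb, was called in all 6 lists and ranked 359 in siHic5/siNS. That of ARID1B lay in its own intron 50.3 kb from the TSS, was also called in all 6 and ranked 1111. DPF2 had 6 siHic5/siNS GBR, of which the strongest (rank 1373) was called in siHic5/siNS alone, and it also had 1 siNS/siNS GBR. Of the 11 CHD and ISWI remodelers, the relatives of CHD9, 5 had a siHic5/siNS GBR (45.5%, near the 43.6% of protein-coding genes) and 0 had one in any other list, where the share of protein-coding genes was 9.92% to 22.2%. With 11 genes, a count of 0 in a list is too few to tell a departure from its share. The 5 with a GBR included CHD5 (rank 2862), CHD3 (rank 3503) and CHD2 (rank 6246). Each of these was weaker than the intronic CHD9 GBR ranked 669 and 1433 and stronger than CHD9 −1.6 kb, ranked 6492. The rest of the 5, ranked 7109 and 9241, were weaker than CHD9 −1.6 kb.

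Of the 18 coactivators 9 had a siHic5/siNS GBR, also near the share of protein-coding genes. EHMT1, a histone methyltransferase, had its strongest GBR at −6.61 kb from the TSS (rank 847, called in every list but siBRM/siNS). NCOA6 had one at −36.2 kb (rank 1016, called in all 6), and PPARGC1B one in its own intron (rank 1842, called in siHic5/siNS, siBRM/siNS and siBRM/siHic5). Of the 10 corepressors 5 had a siHic5/siNS GBR, which was near the 43.6% of protein-coding genes as well. The strongest GBR of SIN3B (rank 1335) was called in the 3 lists with siHic5 and in no other list, as was CHD9 +36 kb, and that of HDAC1 (rank 2975) in siHic5/siNS alone.

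Of the 8 genes of the paxillin family and its LIM-domain relatives, 4 had a siHic5/siNS GBR, near the 43.6% of protein-coding genes. TGFB1I1, which is not counted among these 8, had none, like the remaining genes of the list and most protein-coding genes. The GBR in an intron of LPP ranked 152 and was called in all 6 lists. PXN, which encodes paxillin, had one in its intron 28.2 kb from the TSS (rank 2318), called in siHic5/siNS, siCHD9/siNS, siCHD9/siHic5 and siBRM/siHic5, and had another GBR in siNS/siNS. ZYX had one at −0.18 kb from its TSS (rank 3919), called in siHic5/siNS and siBRM/siHic5. Of the 8 genes of GR and its chaperones, 4 had a siHic5/siNS GBR and 0 a siNS/siNS GBR, against 43.6% and 17.0% of protein-coding genes, and with 8 genes neither count is a departure from these shares that could be detected. The strongest of these were near HSP90AB1 (rank 3637), HSPA8 (rank 3919) and FKBP4 (rank 4056), each called in siHic5/siNS alone.

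**Figure D5:**
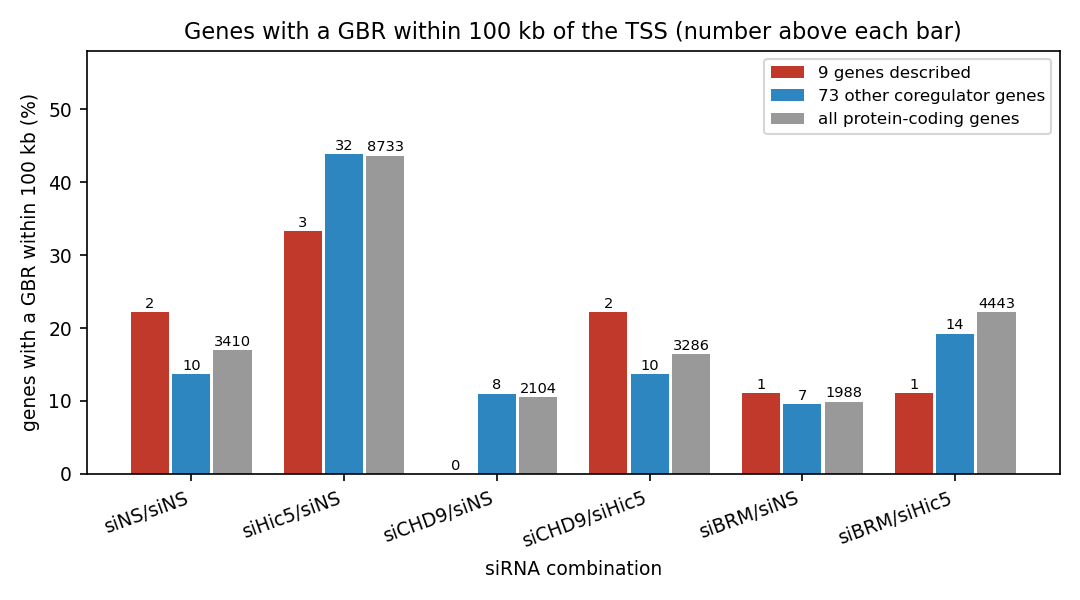
Percentage of genes with a GBR within 100 kb of the TSS in each list, for the 9 genes described, 73 other coregulator genes and all protein-coding genes, with the number of genes above each bar. In siHic5/siNS the bars stand at 33.3%, 43.8% and 43.6%.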

How the data were processed

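GR ChIP-seq peaks of U2OS-GRα cells were taken from 6 deposited lists, 1 per siRNA combination. Single-end reads were trimmed and aligned by the authors to the hg38 (GRCh38) genome using BWA, and duplicates and mitochondrial reads were discarded. Peaks were called with MACS2 on pooled replicates, and those passing the IDR framework were kept. Versions and the IDR threshold are not given in the sources used here. For each peak the authors deposited a score, a signal value, a −log10 p-value and a −log10 q-value. The −log10 p-value grows with read depth and was used to rank GBR within a list. Values of one GBR in several lists are printed side by side, and no change in strength is read from them. The score and signal value were not used.

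All chromosome names were in the reference, and 0 peaks ran past a chromosome end. Summits were assigned to genes within 100 kb of the Ensembl canonical TSS (GENCODE release 44). Peaks of different lists were matched by an overlap of at least 1 bp. Positions are counted from 1. Sequences came from GRCh38. Overlap counting and motif search were tested on simulated data. Members and gene lists were chosen with earlier results of these data known. Named GBR were the strongest and the nearest of each gene, those called in siNS/siNS, and the 3 strongest per further list. A gene this rule names and the sequence of a GBR are not reported here. Samples were grouped by their titles. Tools were Python 3.11.15, NumPy 2.4.6, SciPy 1.17.1, pandas 2.3.3, pysam 0.24.0, samtools 1.23.1 and Matplotlib 3.10.9. Alternatives were other windows, TSS, cutoffs, overlap rules and motif settings.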

Additional observations from a re-analysis of the deposited data

How the results depend on the processing

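No paired analysis was possible because each list was made from pooled replicates, and for the same reason no replicate could be left out. With 7 GBR most counts moved with the setting. Within 50 kb of the TSS the lists siNS/siNS, siHic5/siNS, siBRM/siNS and siBRM/siHic5 held 1, 4, 0 and 1 GBR of the 9 genes. Within 25 kb siHic5/siNS held 1 and the others 0. This 1 GBR was missing from each of the other lists (100%), and 58.7% of the whole siHic5/siNS list was called in no other list. Within 200 kb siNS/siNS held 7, siHic5/siNS 19, siCHD9/siNS 2, siCHD9/siHic5 7, siBRM/siNS 4 and siBRM/siHic5 8. With any annotated TSS of a gene in place of the canonical one they held 7, 14, 3, 9, 6 and 7 in the same order, of which most of the added GBR lay in introns of SULF2 near the TSS of another NCOA3 transcript. With one −log10 q-value cutoff (14.219), or with a −log10 q-value of at least 20, siNS/siNS and siBRM/siNS held 0 and siCHD9/siHic5 held 1, so 100% of the siHic5/siNS GBR of the 9 genes were missing from siNS/siNS, against 76.1% and 76.6% of the whole siHic5/siNS list under these cutoffs. Among the 1000 strongest peaks of each list, siNS/siNS held 0, and siHic5/siNS, siCHD9/siHic5 and siBRM/siHic5 held 1 each, the CHD9 GBR at 36.2 kb, and siBRM/siNS held 1, the CHD9 GBR at 76.8 kb. The former was missing from siNS/siNS (100%, against 28.8% of the 1000) and from neither double depletion (0%, against 29.6% for siCHD9/siHic5 and 22.2% for siBRM/siHic5). The share of GBR with a GRE match fell to 0% without a mismatch, where it was 11.2% of the whole siHic5/siNS list. Of the 73 further genes, 5, 19, 5, 5, 2 and 8 had a GBR within 50 kb in siNS/siNS, siHic5/siNS, siCHD9/siNS, siCHD9/siHic5, siBRM/siNS and siBRM/siHic5, and with one cutoff siCHD9/siNS, siCHD9/siHic5 and siBRM/siNS had 3, 6 and 4. The share of all protein-coding genes was not computed at these settings. The lists also differ in length, so nothing particular to the 73 genes can be read from these counts. The 2 other overlap rules left the shares missing from siNS/siNS, siCHD9/siHic5 and siBRM/siHic5 at 71.4%, 57.1% and 71.4%.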
